A study of Mus musculus with 12 samples.

Results

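The genes described here are 10 genes of lymphoid-primed blood progenitors. They are the template-independent DNA polymerase Dntt, the recombinase genes Rag1 and Rag2, the receptor genes Il7r and Notch1, and the transcription factor genes Ebf1, Pax5, Ikzf1, Tcf3 and Satb1. Members were chosen by gene name in the array annotation, which gave 24 probes among the 56605 probes of the array that are not controls. Of these, 22 probes of 9 members had a signal well above background on 3 or more of the 12 arrays, the condition for a test. Only Rag1 among the members had no tested probe. The tests ran over 33050 genes in all.

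Lymphoid priming is the low expression of lymphoid genes in multipotent cells before they commit. Rag1 and Rag2 form the enzyme that cuts antigen receptor gene segments, and Dntt (terminal transferase) adds bases at the joints. Ikzf1 (Ikaros), Tcf3 (the E proteins E12 and E47) and Satb1, a chromatin organiser, act early in this programme. Il7r, the alpha chain of the interleukin 7 receptor, marks lymphoid progenitors, Notch1 directs the T lineage, and Ebf1 and Pax5 specify and maintain the B lineage.

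Expression was measured in haematopoietic stem cells sorted as LSK SLAM cells (lineage-negative, Sca-1 and Kit positive, gated on SLAM markers) from Kit-enriched bone marrow of male mice. There were 3 mice in each of 4 groups, with 1 array per mouse. The control mice had a sham operation. A second group received a continuous infusion of POL5551, which blocks the chemokine receptor CXCR4, at 100 mg/kg per day for 2 weeks and was sampled at day 14. The other groups were injected with G-CSF, the granulocyte colony-stimulating factor, at 100 µg/kg every 12 h, with 4 injections over 2 days or 9 injections over 5 days. The labels used here give no strain or age, and the same 3 sham mice are the control of all 3 treatments. In sorted cells measured in bulk, fewer cells with a transcript and less of it per cell cannot be told apart.

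Signals are given as log2 relative to the array's 75th percentile, so a value above 0 belongs to the brightest probes of the array. Levels of different probes cannot be compared. That percentile was 1638 signal units on sham 1, the lowest, and 5579 on the array of the first 5-day mouse, the highest, and 75.3% to 85.6% of probes were well above background. The arrays lay on 6 slides, with sham and POL5551 arrays together on slides 1 and 2, POL5551 and 5-day arrays together on slide 5, and all 3 of the 2-day arrays alone on slide 3. Sham 1 stood apart from the other arrays. The median over 1542 probes of olfactory, vomeronasal, taste and keratin-associated genes, which blood cells do not use (off-tissue probes), was -1.60 on sham 1, -3.30 and -3.45 on shams 2 and 3, and -5.17 to -4.10 after POL5551. It was -2.73 to -2.40 after 2 days of G-CSF and -3.97 to -3.25 after 5 days. Of the genes that define the sort, Kit lay between 2.61 and 3.22 on all 12 arrays. Ly6a, which encodes Sca-1, was -1.84 on sham 1 and -0.20 to 1.44 elsewhere, and Slamf1 was -4.12 and not well above background on sham 1. Member differences that moved most without sham 1 are also given without it.

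The 5 probe sequences printed here show which part of the transcripts the results below were read from. They are printed 5′ to 3′ as the array design gives them, each 60 bases long, all in lower case because no base is singled out. The Rag2, Tcf3 and both Ikzf1 probes are open in 1 of the 3 forward reading frames and the Pax5 probe in 3.
Rag2, A_66_P105784: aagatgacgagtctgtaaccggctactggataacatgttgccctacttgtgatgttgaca
Pax5, A_66_P128859: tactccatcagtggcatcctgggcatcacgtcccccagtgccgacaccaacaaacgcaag
Tcf3, A_52_P141662: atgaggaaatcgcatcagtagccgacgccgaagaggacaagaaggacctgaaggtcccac
Ikzf1, A_52_P618569: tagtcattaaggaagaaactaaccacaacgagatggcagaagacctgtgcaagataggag
Ikzf1, A_55_P2741959: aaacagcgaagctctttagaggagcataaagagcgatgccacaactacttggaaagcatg
On build mm9 the Rag2 probe lies at chr2:101470723-101470782 on the plus strand, the Pax5 probe at chr4:44692322-44692381 on the minus strand and the Tcf3 probe at chr10:79875963-79876022 on the minus strand. The 60 bases of the first Ikzf1 probe span 2960 bases of the genome (chr11:11658319-11661278, plus strand), so it crosses an intron. The second Ikzf1 probe lies just before it, at chr11:11658239-11658298. No annotation of mm9 was used here, so exon or intron is not stated for the other probes.

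No member passed the test in any comparison. In the limma fit with Benjamini-Hochberg adjustment over all genes, 0 of the 9 tested members were called after POL5551 against sham, where 2.29% of all genes were called. The same count of 0 held for 2 days of G-CSF against sham (0.0333% of all genes called), 5 days against sham (0.0666%), 5 days against 2 days (0%, with 5262 genes at an unadjusted p under 0.05) and POL5551 against 5 days of G-CSF (0.0605%). By the moderated F test over the 4 groups 0 of 9 members were called, against 1.34% of all genes. At an unadjusted p under 0.05 there was 1 member in each comparison except 5 days of G-CSF against sham, which had 2, and 1 by the F test. Over all 33050 genes, 11578 had an unadjusted p under 0.05 after POL5551, 2965 after 2 days and 3709 after 5 days of G-CSF. The numbers were 3841 for POL5551 against 5 days and 11136 by the F test. List counts after POL5551 given below are to be read against the first of these. On simulated data for POL5551 against sham, with 50 genes changed at each size among 33050, the fit recovered 2% of log2 changes of 1, 36% of those of 2 and 84% of those of 4. In that simulation, with 3 arrays per group, changes of the size measured for most members were thus seldom recovered. It planted few changes and drew noise independently for each gene, so its rates may not hold for the measured arrays.

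**Figure D1:**
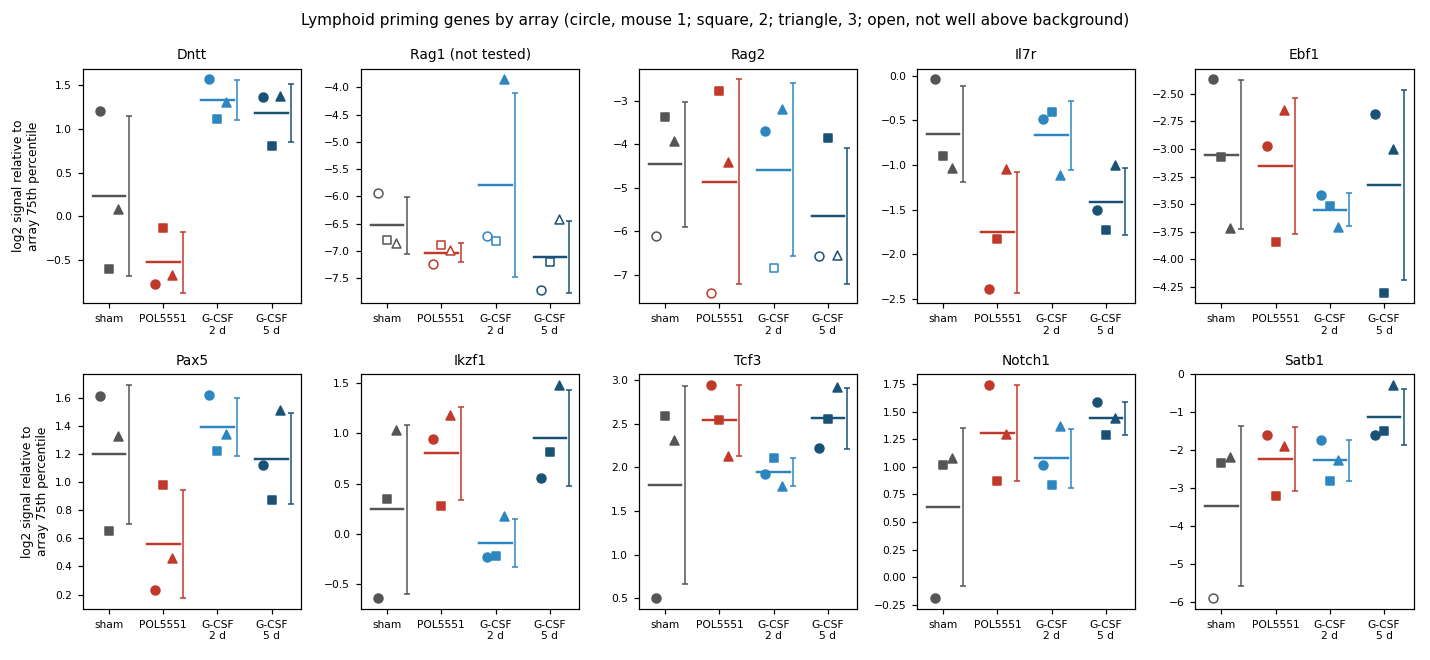
Level of each member on the 12 arrays, as log2 signal relative to the array's 75th percentile, for its tested probe with the highest mean (for Rag1, its only probe). Symbols mark mouse 1, 2 and 3, open symbols are not well above background, lines are group means and bars are 1 SD over 3 mice. Dntt lies at 0.80 to 1.57 on the 6 G-CSF arrays and below 0 on the 3 POL5551 arrays, and sham 1 stands away from shams 2 and 3 for most members.

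Dntt gave the clearest separation between treatments, though it did not pass the test. Its only probe (chr19:41133936-41133995, mm9, plus strand) was well above background on all 12 arrays. The level was 1.21, -0.60 and 0.08 in shams 1, 2 and 3, and -0.78, -0.13 and -0.67 after POL5551. It was 1.57, 1.11 and 1.31 after 2 days of G-CSF and 1.37, 0.80 and 1.38 after 5 days. The G-CSF arrays were high at both times, the POL5551 arrays were low, and sham 1 lay with the G-CSF arrays while shams 2 and 3 lay near or within the POL5551 range. The order of the group means was 2 days of G-CSF (1.33 ± 0.23, SD, n = 3), 5 days (1.19 ± 0.33), sham (0.23 ± 0.91) and POL5551 (-0.53 ± 0.34). No pair of neighbours in that order differed past the threshold.

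POL5551 was not tested against 2 days of G-CSF. Among the comparisons tested, the largest Dntt difference was -1.71, between POL5551 and 5 days of G-CSF (SE 0.435, 95% interval -2.67 to -0.76). Its limma p was 0.00225 unadjusted and 0.263 adjusted. Dntt was 3.28-fold lower after POL5551 than after 5 days of G-CSF. The groups did not overlap, as held for 25.5% of all genes in that comparison. On slide 5, which held an array of each group, the difference was -1.47. Against sham, Dntt was 1.1 higher after 2 days of G-CSF (SE 0.435, limma adjusted p = 0.502) and 0.96 higher after 5 days (limma adjusted p = 0.445). After POL5551 the difference was -0.76 (SE 0.435, limma adjusted p = 0.21), with -1.99 within slide 1 and 0.13 within slide 2. Without sham 1 the differences from sham were 1.59 after 2 days (limma adjusted p = 0.0666), 1.45 after 5 days (0.257) and -0.27 after POL5551 (0.656). The F test over 4 groups gave Dntt a limma adjusted p of 0.0634, and 0.0173 without sham 1, 0.0428 without sham 2 and 0.0598 without sham 3. In those 3 fits 22.6%, 6.28% and 5.61% of all genes were called by the F test, against 1.34% with all arrays.

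Rag1 was at the detection limit. Its probe (chr2:101481051-101481110, mm9, minus strand) was well above background on 1 of the 12 arrays, that of the third 2-day mouse, at -3.85. The other 11 values lay between -7.71 and -5.93. Rag2 was well above background on 7 of 12 arrays with the probe printed above, and on 3 of 12 with its other probe. On the former, Rag2 was well above background at -3.37 and -3.91 in shams 2 and 3, -2.76 and -4.40 in POL5551 mice 2 and 3, -3.70 and -3.18 in 2-day mice 1 and 3 and -3.85 in the second 5-day mouse. Arrays with and without a measurable Rag2 signal occurred in every group. The limma differences from sham were -0.40 after POL5551 (SE 1.31, adjusted p = 0.822; 0.18 to 0.27 with quantile normalization, normexp or the authors' values), -0.12 after 2 days and -1.20 after 5 days of G-CSF, and the 95% interval of the first was -3.28 to 2.49.

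Other genes of V(D)J recombination and end joining, such as the Artemis gene Dclre1c and the Ku genes, were measured as a list of 12. By limma 0 of the 12 passed in any comparison or by the F test (after POL5551, 3 had an unadjusted p under 0.05). Their median difference after POL5551 was 0.52, against -0.51 over all genes tested. Medians of the other lists described below ran from -1.03 (T lineage) to 2.76 (stromal), with 0.50 for granulocyte and 0.48 for erythroid markers. The 2 genes of the V(D)J list with the smallest F p were Polm, a polymerase of the same family as Dntt, and Xrcc6, which encodes Ku70. Polm was at -0.29 after POL5551, -1.07 after 2 days and -1.06 after 5 days of G-CSF relative to sham, with limma adjusted p from 0.357 to 0.536. Xrcc6 was 1.1 higher than sham after POL5551 (limma adjusted p = 0.0937) and was 0.01 on sham 1 against 0.95 and 1.40 on shams 2 and 3. Without sham 1 the Xrcc6 difference was 0.71 (limma adjusted p = 0.264).

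Il7r had the smallest adjusted p of the members after POL5551. The tested probe (chr15:9436822-9436881, mm9, minus strand) read -0.04, -0.90 and -1.03 in shams 1, 2 and 3, and -2.39, -1.83 and -1.05 after POL5551. It read -0.49, -0.41 and -1.11 after 2 days of G-CSF and -1.51, -1.73 and -1.0 after 5 days. All POL5551 values lay below all sham values, though the closest were -1.05 and -1.03, and 36.3% of all genes did not overlap between these groups. The difference was -1.10 (SE 0.423, 95% interval -2.03 to -0.17), with a limma adjusted p of 0.11, or a 2.14-fold lower level. Within slides 1 and 2 it was -2.35 and -0.86, and without sham 1 and the first POL5551 mouse it was -0.47 (limma adjusted p = 0.634). After G-CSF the difference from sham was -0.02 at 2 days and -0.76 at 5 days (limma adjusted p = 0.996 and 0.514), so sham and 2-day levels were within their spread of each other. The other Il7r probe (chr15:9442570-9442629, mm9) was not well above background on any array.

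The other genes of interleukin 7 receptor signalling numbered 11, of which 10 were tested and 0 passed by limma (after POL5551, 1 had an unadjusted p under 0.05). Il7 itself had no tested probe. Jak3, the kinase bound to the common gamma chain, was 0.60 higher than sham after 2 days of G-CSF and at -0.58 after POL5551 (limma adjusted p = 0.696 and 0.25). Stat5b, a transcription factor downstream of the receptor, was 1.26 higher than sham after POL5551 (limma adjusted p = 0.0944), with 0.29 on sham 1 and 1.77 and 1.76 on shams 2 and 3. Without sham 1 the Stat5b difference was 0.77 (limma adjusted p = 0.271). The list's median difference after POL5551 was 0.50.

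Notch1, the receptor that directs progenitors to the T lineage, was measured with 2 probes. The brighter (chr2:26319440-26319499, mm9, minus strand) read -0.19, 1.02 and 1.08 in the shams and 1.74, 0.87 and 1.30 after POL5551. It read 1.02, 0.84 and 1.37 after 2 days of G-CSF and 1.59, 1.29 and 1.44 after 5 days. The 5-day values all lay above the sham values, as held for 12.6% of all genes, and the difference was 0.81 (SE 0.389, limma adjusted p = 0.461). Without sham 1 it was 0.39 (limma adjusted p = 0.802). The other Notch1 probe (chr2:26354049-26354108) gave differences from sham of -0.30 after POL5551 and -0.08 after 5 days of G-CSF in the fit of single probes, with limma adjusted p of 0.658 and 0.958.

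All 16 other genes of the Notch pathway were tested and 0 passed by limma (after POL5551, 4 had an unadjusted p under 0.05). Hes1, a direct transcriptional target of Notch, was well above background on none of the sham and 2-day arrays. It was measured on 2 of 3 POL5551 arrays and 2 of 3 arrays of 5 days of G-CSF. Its levels after POL5551 were -4.37, -3.46 and -4.89, and its limma adjusted p against sham was 0.0633. Jag1, a Notch ligand, was measured on 1 sham array, 2 POL5551 arrays, no 2-day array and 2 arrays of 5 days (F test, limma adjusted p = 0.0615). The ligand genes Dll4 and Dll1 differed from sham by -1.37 and -2.39 after POL5551 (limma adjusted p = 0.0631 and 0.0686). Without sham 1 the Dll4 and Dll1 differences were -1.29 and -1.95 (limma adjusted p = 0.17 and 0.223). In this list 11 of 16 genes were above 0 after POL5551.

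Neither of the B-lineage factors passed in any comparison. Pax5 (probe printed above) read 1.61, 0.65 and 1.33 in the shams and 0.23, 0.98 and 0.46 after POL5551. It read 1.62, 1.22 and 1.34 after 2 days of G-CSF and 1.12, 0.87 and 1.51 after 5 days. The groups overlapped in all comparisons, and the difference after POL5551 was -0.64 (SE 0.347, 95% interval -1.40 to 0.12, limma adjusted p = 0.189). A second Pax5 probe (chr4:44537936-44537995, mm9, minus strand), also well above background on all 12 arrays, gave -1.04 after POL5551 (SE 0.51) and -1.02 after 5 days of G-CSF (SE 0.51), with limma adjusted p of 0.176 and 0.475 among single probes.

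Ebf1 was measured with 3 tested probes. The probe with the highest mean (chr11:44818606-44818665, mm9, plus strand) read -2.37, -3.07 and -3.72 in the shams, and -2.97, -3.84 and -2.65 after POL5551. It read -3.42, -3.52 and -3.71 after 2 days of G-CSF and -2.68, -4.30 and -3.0 after 5 days, with a difference after POL5551 of -0.10 (SE 0.495, limma adjusted p = 0.884). Under the 4 other scalings, the authors' included, that difference was 0.20 to 0.51. A second probe at chr11:44820424-44820483 read -2.64, -3.97 and -6.74 in the shams, the last not well above background, and -0.98, -3.98 and -1.06 after POL5551. It read -1.21, -3.90 and -2.27 after 5 days of G-CSF. Its difference after POL5551 was 2.44 (SE 1.24, limma adjusted p = 0.187 among single probes). The third (chr11:44431517-44431576) was well above background on 4 of 12 arrays, at -2.26 and -4.35 in POL5551 mice 1 and 3, -4.02 in the third 2-day mouse and -2.69 in the first 5-day mouse. The first and second probes were lowest within their groups on POL5551 mouse 2 and on the second 5-day mouse.

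Ebf1 is also active in marrow stromal cells and fat precursors, and stromal markers were present on these arrays. Of 10 stromal markers all were tested, 8 were well above background on every array, and Ebf3 and Pdgfrb passed after POL5551 (limma adjusted p = 0.0197 and 0.0335). Pdgfrb, a receptor of mesenchymal cells, rose by 3.62 (SE 0.687), with 2.63 when sham 1 was left out and 1.21 in the fit with the off-tissue covariate. Ebf3, a relative of Ebf1, was well above background on no array of the shams and read -0.51, -2.53 and -0.46 after POL5551. Without sham 1 the adjusted p of limma was 0.0598 for Ebf3 and 0.0275 for Pdgfrb, and without the first POL5551 mouse 0.081 and 0.128. Without the second POL5551 mouse that of Pdgfrb was 0.0736. With the off-tissue covariate the adjusted p was 0.554 for Ebf3 and 0.934 for Pdgfrb, and with quantile normalization 0.0154 and 0.0803. Over all alternatives in which it was tested Ebf3 passed in 17 of 23 and Pdgfrb in 12 of 23. The stromal chemokine Cxcl12 read -0.48, -0.75 and -1.54 in the shams and 3.03, 1.45 and 3.16 after POL5551. It read -1.48, -1.38 and 2.34 after 2 days of G-CSF and 2.94, 1.03 and 2.62 after 5 days. As with Ebf1, the second mouse was the lowest of the POL5551 group and of the 5-day group. In the 2-day group Cxcl12 was highest in the third mouse, where the first Ebf1 probe was lowest, at -3.71. The second Ebf1 probe read -3.68, -6.76 and -3.56 on the 2-day arrays, with -6.76 not well above background. The summed level of the 10 markers, as log2 of their summed linear values, ran from 2.28 to 3.26 in sham, 3.94 to 5.62 after POL5551, 2.79 to 5.26 after 2 days and 3.43 to 5.22 after 5 days. Their part in the Ebf1 levels was not tested.

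Ikzf1 was measured with 4 probes, all well above background on all 12 arrays. The intron-spanning probe printed above read -0.64, 0.35 and 1.03 in the shams and 0.94, 0.28 and 1.18 after POL5551. It read -0.23, -0.22 and 0.18 after 2 days of G-CSF and 0.56, 0.81 and 1.48 after 5 days. All 5-day values lay above all 2-day values, as held for 35.1% of all genes in either direction, and the difference between times was 1.04 (SE 0.446, 95% interval 0.06 to 2.02, limma adjusted p = 0.298). The 2-day arrays were all on slide 3, so time and slide cannot be told apart. The adjacent probe (chr11:11658239-11658298) gave 1.43 between times (SE 0.56, limma adjusted p = 0.289 among single probes). After POL5551 the 4 probes were 0.55, 1.20, 1.43 and 0.62 above sham, with limma adjusted p from 0.152 to 0.369 among single probes. Without sham 1 the gene-level difference was 0.11.

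Tcf3, the E protein gene, was lowest on sham 1. The probe printed above read 0.50, 2.59 and 2.31 in shams 1, 2 and 3, and 2.94, 2.55 and 2.13 after POL5551. It read 1.93, 2.11 and 1.79 after 2 days of G-CSF and 2.22, 2.56 and 2.92 after 5 days. Sham 1 was below every other array, while shams 2 and 3 lay among the treated mice. The difference after POL5551 was 0.74 (SE 0.497, limma adjusted p = 0.267), and 0.09 without sham 1. After 2 days of G-CSF it was 0.14 with sham 1 and -0.51 without it (limma adjusted p = 0.967 and 0.339). The other probe (chr10:79872639-79872698) was not well above background on sham 1 (-6.10) and read 0.41 and 0.53 on shams 2 and 3 and 0.76 to 0.80 after POL5551. On that probe the 2-day arrays read -1.02, -0.31 and -0.45 and the 5-day arrays 0.21, 0.24 and -0.62, all below shams 2 and 3.

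Satb1 was measured with 5 tested probes, of which only the brightest was well above background on most arrays of every group. The probe with the highest mean (chr17:51879137-51879196, mm9, minus strand) read -5.91, -2.34 and -2.19 in the shams, the first not well above background, and -1.61, -3.20 and -1.89 after POL5551. It read -1.72, -2.80 and -2.26 after 2 days of G-CSF and -1.60, -1.48 and -0.28 after 5 days. The 5-day values lay above the values of all 3 other groups, the closest being -1.60 and -1.61. Groups did not overlap for 12.6% of all genes against sham, 35.1% against 2 days and 25.5% against POL5551. Against sham the 5-day difference was 2.36 (SE 0.876, 95% interval 0.43 to 4.28, limma adjusted p = 0.382), or 5.12-fold, and 1.14 without sham 1 (limma adjusted p = 0.653). Against 2 days it was 1.14 (limma adjusted p = 0.485). The other tested Satb1 probes gave 5-day differences from sham of -0.99, -0.19, 0.16 and 1.12, with limma adjusted p from 0.556 to 0.957 among single probes.

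After POL5551 the Satb1 probe with the highest mean was 1.24 above sham (SE 0.876, limma adjusted p = 0.286), and 0.03 without sham 1 (limma adjusted p = 0.978). A second probe (chr17:51963968-51964027) read -4.15, -4.10 and -4.59 in the shams, the first not well above background, and was well above background on none of the POL5551 arrays (limma adjusted p = 0.094 among single probes). The others lie at chr17:51962099-51962158, chr17:51946454-51946513 and chr17:51878314-51878373 and were well above background on 7, 4 and 3 arrays. None of the 22 tested probes passed in any comparison or by the F test when fitted singly (smallest limma adjusted p 0.0745, Dntt).

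**Figure D2:**
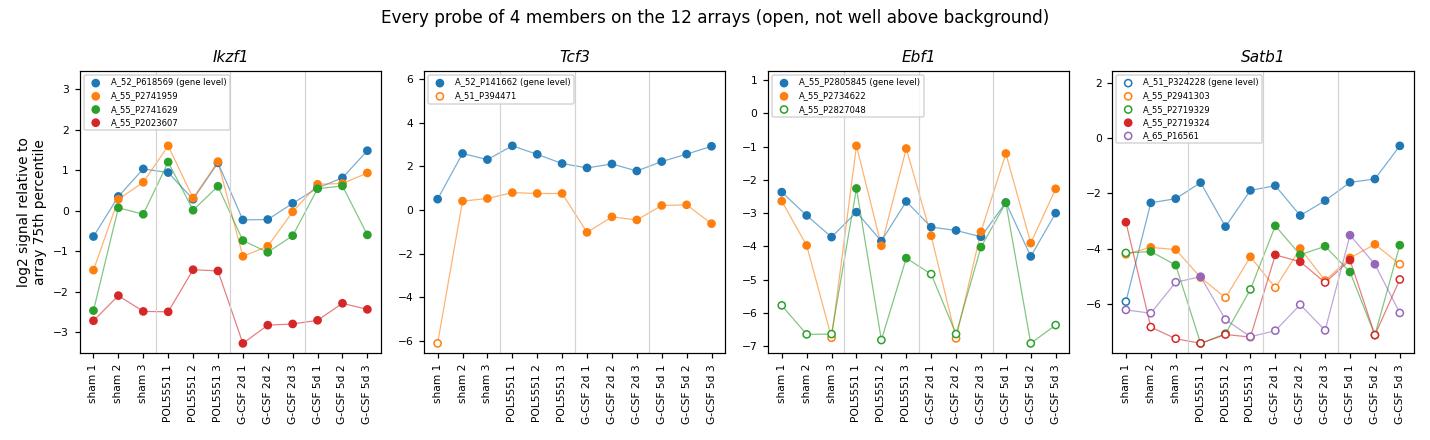
Log2 signal relative to the array's 75th percentile for every probe of Ikzf1, Tcf3, Ebf1 and Satb1 on the 12 arrays; grey lines separate the groups and open points are not well above background. Several Satb1 probes are not well above background on many arrays, and 2 of the Ebf1 probes peak on POL5551 mouse 1, at -0.98 and -2.26. Heights of different probes cannot be compared.

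**Figure D3:**
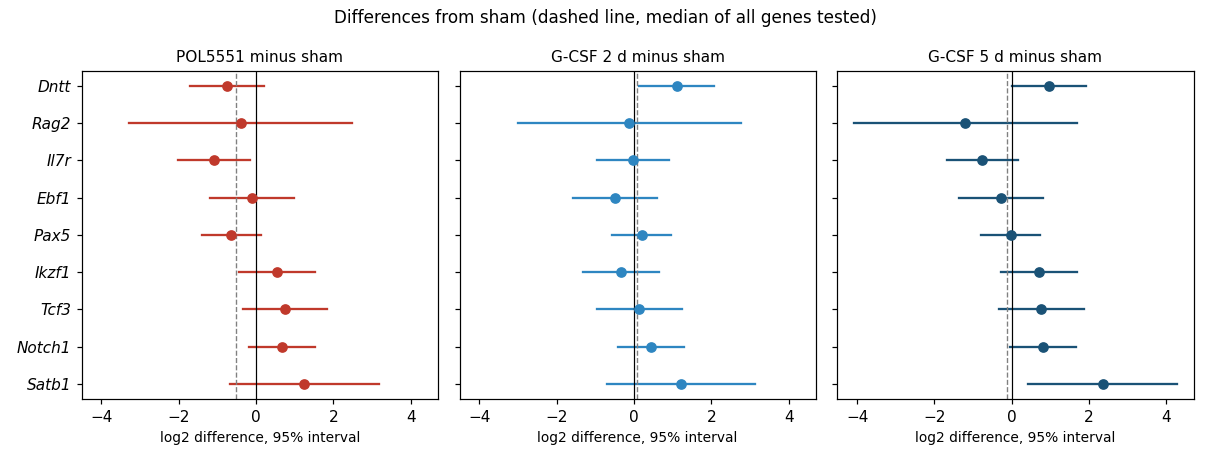
Log2 differences from sham with 95% intervals from the limma fit for the 9 tested members; the dashed line is the median of all genes tested, -0.51 after POL5551, 0.09 after 2 days and -0.13 after 5 days of G-CSF. Most intervals include 0, and none of the differences passed after adjustment over all genes.

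The median of all genes moved with the scaling of the arrays, which bears on every difference after POL5551. It was -0.51 with the 75th percentile, -0.11 with the median as scale, -0.19 with quantile normalization and -0.13 with normexp and quantile normalization. The calls over all genes were 59 higher and 698 lower with the first, 52 and 168 with the second, 18 and 71 with the third and 6 and 24 with the last. Dntt and Pax5 differed from sham after POL5551 by -0.76 and -0.64 with the 75th percentile, -0.35 and -0.24 with the median as scale, -0.76 and -0.78 with quantile normalization and -0.64 and -0.75 with normexp and quantile normalization. Across the 9 tested members the median difference was -0.10 after POL5551, 0.14 after 2 days and 0.70 after 5 days of G-CSF. At 5 days 5 members were above sham and 4 below. Of those above, Ikzf1, Tcf3, Notch1 and Satb1 went from 0.70, 0.76, 0.81 and 2.36 to 0.26, 0.12, 0.39 and 1.14 without sham 1. Dntt went from 0.96 to 1.45.

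Members also varied with the off-tissue median over the 12 arrays. Il7r had a Pearson r of 0.92 with it and a Spearman rho of 0.83 (permutation p = 7e-05 and 0.00142, adjusted over 9 members 0.00063 and 0.00639). Pax5 had 0.80 and 0.84 (adjusted permutation p 0.00885 and 0.00639) and Dntt 0.67 and 0.69 (0.0298 and 0.0521). Tcf3 had -0.77 and -0.66 (adjusted permutation p 0.00885 and 0.0539), Notch1 -0.69 and -0.48 (0.0298 and 0.172) and Ikzf1 -0.66 and -0.62 (0.0298 and 0.0677). For Satb1, Ebf1 and Rag2 r was -0.49, 0.14 and 0.06, with adjusted permutation p of 0.141 or more. Without sham 1 and the first POL5551 mouse, the arrays farthest from the median, r was 0.81 for Il7r, 0.63 for Pax5, 0.56 for Dntt, -0.47 for Tcf3, -0.49 for Ikzf1 and -0.15 for Notch1. The relation of Notch1 thus rested on those arrays. Member levels and the off-tissue median were scaled to the same percentile of each array. How many of all genes vary as strongly with that median was not counted, so the relation is not shown to be particular to the members. The off-tissue median differed between groups as well, so this relation and the treatments cannot be told apart here. The permutations shuffled all 12 arrays without regard to group, so their p does not measure a relation within groups. With it as a covariate, the differences after POL5551 were 0.42 for Dntt and 0.14 for Il7r (limma adjusted p = 0.963 and 0.994).

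**Figure D4:**
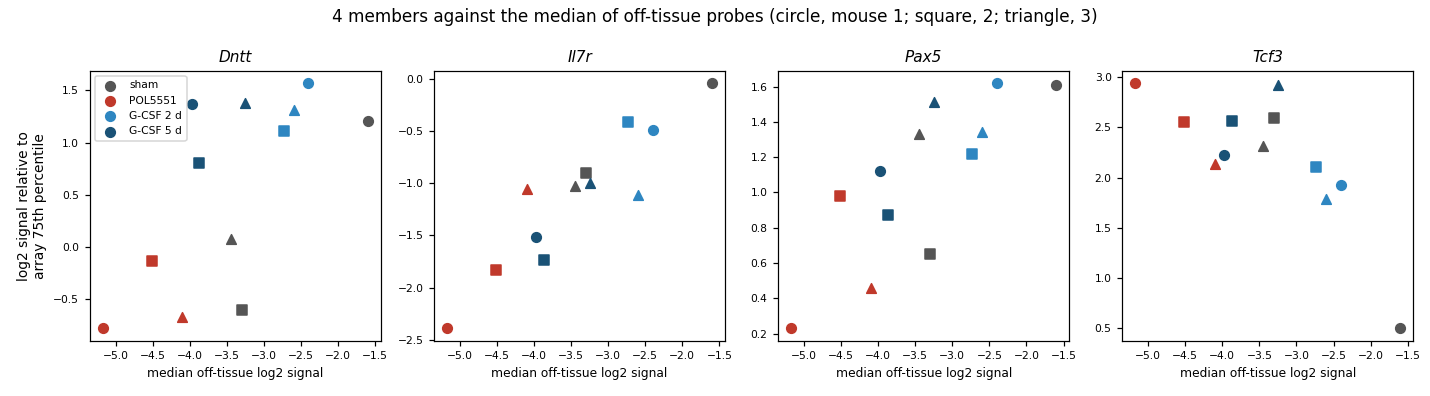
Levels of Dntt, Il7r, Pax5 and Tcf3 (log2 relative to the array's 75th percentile) against the median log2 signal of off-tissue probes, 1 point per array, coloured by group with symbols for mouse 1, 2 and 3. Il7r (r = 0.92) and Pax5 (0.80) are higher, and Tcf3 (-0.77) lower, where the off-tissue median is higher, with sham 1 at the far right of each panel.

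Genes whose pattern over the 12 arrays was most like that of each member are given as a description, among 17294 genes with a symbol and well above background on all arrays. For Dntt they were Gm32894 (r = 0.96) and the costimulatory receptor gene Cd40 (r = 0.95). For Ebf1 they were Gdf10, a growth factor of the BMP family (r = 0.92), and Pdgfa (r = 0.86). For Tcf3 they were Cxxc1 and Cdk5 (both 0.96), for Ikzf1 Ints1 (0.925), and for Notch1 Fbxw5 and Unc45a (both 0.94). For Pax5 they were Gm31066 and Mirc35hg (both 0.98), and for Il7r E130311K13Rik and A230051N06Rik (both 0.97).

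Genes that accompany priming, and markers of cells that could enter the sort, were read as lists. Their counts at an unadjusted p under 0.05 after POL5551 stand beside 11578 of 33050 over all genes. The lymphoid progenitor list had 16 tested genes and 0 calls by limma (5 at an unadjusted p under 0.05 after POL5551), with a median difference after POL5551 of 0.41. Ets1, a transcription factor gene of this list, was at 0.83 after POL5551 and 1.40 after 5 days of G-CSF (limma adjusted p = 0.146 and 0.301). Flt3, the cytokine receptor of lymphoid-primed progenitors, differed from sham by -0.46, 0.33 and 0.09 after POL5551, 2 days and 5 days. Among the E protein, Id and Ikaros relatives 0 of 10 tested genes passed by limma (3 at an unadjusted p under 0.05 after POL5551). Id2, an inhibitor of E proteins, was at -1.34 after POL5551 (limma adjusted p = 0.09), and at -0.92 without sham 1 (limma adjusted p = 0.271). Tcf12, an E protein gene, was at -1.21 after 2 days of G-CSF (limma adjusted p = 0.431).

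Of 14 tested B-lineage markers 0 passed by limma (4 at an unadjusted p under 0.05 after POL5551), and 10 were well above background on every array. Vpreb3, a chaperone of the pre-B receptor, was at -2.04 after POL5551 (limma adjusted p = 0.0718). It read -0.91 on sham 1 against -3.48 and -2.72 on shams 2 and 3. Without sham 1 the Vpreb3 difference was -1.31 (limma adjusted p = 0.196). The summed level of the B-lineage list ran from 6.50 to 7.49 in sham, 5.92 to 5.98 after POL5551, 6.83 to 7.20 after 2 days and 5.95 to 6.63 after 5 days. In this list 6 of 14 genes were above 0 after POL5551, and the sum was carried mostly by Cd22, a lectin of B cells, at 5.99 to 7.32 in the shams and 5.25 to 5.42 after POL5551. Its part in the member levels was not tested.

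T-lineage markers gave 0 limma calls among 15 tested (7 at an unadjusted p under 0.05 after POL5551), led by Ptcra, the pre-T receptor alpha chain, at -1.75 after POL5551 (limma adjusted p = 0.0852), and Cd3e at -0.46. Of 13 natural killer and innate lymphoid markers 1 passed. After POL5551 1 of the 13 was above 0, and their median was -0.71 against -0.51 over all genes. Eomes, a T-box factor of natural killer cells, fell by 2.68 after POL5551 (limma adjusted p = 0.0388), from 0.05, 0.42 and -1.20 in the shams to -3.15, -2.95 and -2.66. Its limma adjusted p was 0.123 without sham 1, 0.142 without the first and 0.0795 without the second POL5551 mouse. It was 0.0943 with quantile normalization, 0.0788 with normexp, 0.0654 with median scaling, 0.0899 with the authors' values and 0.878 with the off-tissue covariate, and Eomes passed in 10 of 23 alternatives. Nkg7, a gene of cytotoxic granules and the only marker of the 13 above 0, was at 2.43 (limma adjusted p = 0.0564). It read -1.25 on sham 1 against 1.67 and 0.98 on the other shams, and was at 1.57 without sham 1 (limma adjusted p = 0.0789). Plasmacytoid dendritic markers gave 0 limma calls among 10 (2 at an unadjusted p under 0.05 after POL5551), with 5 of the 10 above 0 and a median of -0.32. The genes with the smallest F p were Ccr9, at -2.07, and Cd209d, at -1.39 after POL5551. Without sham 1 these differences were -1.18 and -0.86. By limma 0 of the 12 stem cell sort markers, 12 granulocyte, 9 macrophage and 9 erythroid markers tested passed, with 2, 4, 1 and 2 at an unadjusted p under 0.05 after POL5551. The genes of these with the smallest F p were Cd34 (1.21 after POL5551) and Fgd5 (0.10), Prtn3 (0.95) and S100a8 (2.41), Siglec1 (-0.81) and Adgre1 (-1.17), and Rhag (1.00) and Car1 (-1.40). Without sham 1 they were, in that order, 0.66, 0.01, 0.41, 1.7, -0.68, -0.63, 0.9 and -1.01. S100a8 read -6.22, -1.75 and -6.41 in the shams and -1.71, -4.01 and -1.42 after POL5551. On shams 1 and 3 it lay below the lowest value well above background there, -4.08 and -4.99.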

How the data were processed

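Per the labels, RNA of sorted stem cells was labelled with Cy5 and hybridized in a single colour to Agilent arrays, 1 per mouse. The deposited scanner files hold a spot intensity made by Agilent Feature Extraction 11.5.1.1, per the file headers and the submitters' processing notes, with no normalization between arrays. The authors' table of intensity values has the same distribution in every column. Its columns in the POL5551 group and for 5-day mice 2 and 3 match scanner files of the same group under other mouse numbers. Mouse numbers here are those of the scanner files.

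From the processed intensity, log2 values were computed without outlier spots, averaged per probe and scaled to the array's 75th percentile over 56605 probes. Probes well above background on at least 3 of 12 arrays were tested, and each gene was read from its tested probe with the highest mean. Member probes keep the array's gene name. Of the others, 32978 were named through a RefSeq accession, 10216 by symbol and 520 by synonym, and 12867 kept the array's name only. Coordinates are the array design's. The comparisons used limma (version 3.58.1, R version 4.3.3, 4 group means, 8 residual and 3.22 prior degrees of freedom, two-sided, Benjamini-Hochberg over 33050 genes, threshold 0.05), and single probes over 49499 probes. The smallest p of an exact test with 3 arrays a group is 0.1. The limma test pools the spread over all 4 groups. The number of arrays limits the precision. Correlations with the off-tissue median used 100000 permutations, two-sided, over 12 arrays without regard to group. The code was tested on simulated data, where it made 4 false calls.

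The members, the lists (lymphoid progenitor, E protein, Id and Ikaros, interleukin 7 receptor, Notch, V(D)J, B, T, natural killer, plasmacytoid dendritic, stem cell sort, granulocyte, macrophage, erythroid and stromal genes) and the tests were chosen with earlier results of these data known. Named genes are all members, every list gene called, the 2 genes of each list with the smallest F p, and the 2 genes most correlated with each member seen on all arrays. Some genes that this rule names are not reported here. Kit, Ly6a, Slamf1, Flt3, Cd22, Cxcl12, Dll1 and Dll4 were named after their values were seen. Mouse numbers mark separate mice, and the labels give them no shared litter or batch.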

Additional observations from a re-analysis of the deposited data

Results flagged for a closer look

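The Ikzf1 difference between 5 and 2 days of G-CSF, 1.04 on the log2 scale (SE 0.446), drew attention because the groups lay on opposite sides of the sham mean. All 3 of the 2-day arrays were below it, on average by a difference of -0.34, and all 3 of the 5-day arrays above it, on average by 0.70. Tested directly, the difference did not pass (limma adjusted p = 0.298). No other member had this pattern. The sham mean included sham 1, at -0.64 against 0.35 and 1.03 on shams 2 and 3. Without sham 1 the 5-day difference from sham was 0.26, and the first 5-day mouse, at 0.56, lay below the sham mean. Groups of 3 arrays are too small to test for single arrays that stand apart.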

How the results depend on the processing

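Over 24 alternatives and 1052 recomputed member differences, 0 passed by limma (lowest adjusted p 0.0596), and 76 changed sign, in 31 of 45 distinct differences. The cause of a sign change was not tested. By the F test 1 member, Dntt, passed with probes well above background on all arrays (adjusted p 0.0316, with 14% of all genes called), and leaving out single arrays gave 0 to 1 members (without sham 1 or sham 2); its adjusted p ran from 0.0173 to 0.3.

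For POL5551 against sham, Rag2 and Ebf1 changed sign with quantile normalization (0.25 and 0.48), normexp (0.18 and 0.20) and the authors' values (0.27 and 0.51). Median scaling gave Ebf1 0.30, Pax5 at 5 days against sham 0.12, Dntt between times 0.06, and Ikzf1, Tcf3 and Notch1 in POL5551 against 5 days 0.10, 0.22 and 0.11. The mean of tested probes gave Ebf1 1.41, 0.16 and 0.92 (POL5551, 2 and 5 days against sham), Satb1 -0.79 after POL5551, Pax5 -0.19 at 2 days, Notch1 -0.11 between times, and Ikzf1 and Tcf3 0.31 and 0.40 in POL5551 against 5 days. Slide as a fixed block gave Rag2 0.49 at 5 days against sham, and Rag2 -0.55, Il7r 0.68 and Ikzf1 0.37 in POL5551 against 5 days. The off-tissue covariate gave, after POL5551, Dntt 0.42, Il7r 0.14, Ebf1 0.79, Pax5 0.04, Ikzf1 -0.16, Tcf3 -0.74, Notch1 -0.38 and Satb1 -1.05. It gave Ebf1 0.18 and Pax5 0.31 at 5 days, Il7r 0.27 in POL5551 against 5 days, and between times Dntt 0.58, Il7r 0.02, Pax5 0.19, Tcf3 -0.29, Notch1 -0.28 and Satb1 -0.27. Without sham 1 and POL5551 mouse 1, chosen after seeing the data, Rag2, Ebf1, Tcf3 and Satb1 were 0.06, 0.15, -0.11 and -0.28 after POL5551, Il7r and Tcf3 0.29 and -0.51 at 2 days, and Ebf1 and Pax5 0.07 and 0.18 at 5 days.

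Leaving out single arrays gave, after POL5551, Rag2 -1.45 to 0.88 and Ebf1 -0.43 to 0.24. At 2 days it gave Rag2 -0.94 to 1.02, Il7r -0.20 to 0.29, Pax5 -0.08 to 0.40, Ikzf1 -0.78 to 0.05 and Tcf3 -0.51 to 0.54. At 5 days it gave Ebf1 -0.60 to 0.21 and Pax5 -0.30 to 0.18, and between times Dntt -0.25 to 0.05 and Ebf1 -0.10 to 0.71. In POL5551 against 5 days it gave Rag2 -0.25 to 2.08, Ebf1 -0.31 to 0.51, Ikzf1 -0.34 to 0.12, Tcf3 -0.23 to 0.18 and Notch1 -0.36 to 0.07.

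Calls over all genes after POL5551 numbered 757, and 0 (off-tissue covariate, 1818 at an unadjusted p under 0.05) to 4755 (without sham 3) elsewhere. They numbered 72 without sham 1, 60 without POL5551 mouse 1, 62 with the authors' values, 2027 with probes seen on all arrays and 1139 with slide as a fixed block. In the other comparisons the calls ran from 2 to 166 at 2 days, 0 to 55 at 5 days, 0 to 14 between times and 0 to 91 for POL5551 against 5 days, and by the F test from 23 to 7477. With the mouse number as a replicate block, 0 members passed, 0 changed sign and 179 genes passed after POL5551. The numbers mark separate mice and share no pairing: deviations of same-numbered mice correlated at -0.31 to 0.25 over 18 pairs and of others at -0.27 to 0.43 over 36.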
